A study of Mactra quadrangularis with 2 samples.

Results

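Neurotransmitter receptors, neuropeptides and ion channels were followed in digestive gland RNA from Mactra veneriformis, a clam listed as Mactra quadrangularis in the organism label. Members were the unigenes in the authors' table of called unigenes whose first Nr or whose Swiss-Prot description held a word for acetylcholine, cholinesterase, GABA, glutamate receptor, serotonin, dopamine, neuropeptide, enterin, FMRFamide or synapse, or for a potassium, sodium, calcium or transient receptor potential channel. A unigene is a contig assembled from the reads without a genome. The words found 62 members among 4337 described, 17625 called and 124752 measured unigenes, after 2 matches to synaptonemal proteins, which belong to meiotic chromosomes, had been dropped. No cholinesterase and no calcium channel was among them.

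The control group was kept in water with DMSO, the solvent, at 0.05% by volume. The BDE-47 group was kept for 3 days in water with the same share of DMSO and BDE-47, a brominated diphenyl ether used as a flame retardant, at a nominal 5 µg/L. The series describes 3 replicates of 30 clams per group, with the glands of 30 clams pooled for RNA, but each group has 1 column of counts, so no value below has a replicate check and no test between conditions was made. The digestive gland was taken whole, with whatever nerve, muscle and blood cells it holds. In such bulk RNA, fewer cells of a type and less RNA per cell cannot be told apart.

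Acetylcholine acts on nicotinic receptors, which are ion channels built from several subunits, and on muscarinic receptors, which signal through G proteins. In molluscs, neurons of the gut wall release acetylcholine, serotonin and many neuropeptides, among them the FMRFamide family, which act mostly on G protein-coupled receptors and set gut movement. Transient receptor potential (TRP) channels are cation channels that open to temperature, chemicals, lipids or store depletion, and several carry calcium in epithelia rather than in neurons. Bivalve genomes hold large families of nicotinic receptor subunits, so several contigs may share the name of 1 vertebrate subunit.

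The libraries were of like depth, 15.6 M fragments (control) and 15.9 M (BDE-47). Levels are given as FPKM, fragments scaled to unigene length and library total. Each fold is the fragment ratio after division by the library totals, with an exact 95% counting interval. A unigene was counted as higher or lower in the BDE-47 library under these conditions: a log2 ratio, taken on FPKM plus 0.1, of 1 or more in size, a total of 20 or more fragments in both libraries, and an interval that excluded 1. By this rule of size 13 members were higher, 46 lower and 3 not past it. The background over all 89164 unigenes that reached 20 fragments was 12.4% higher and 16.2% lower. With TMM scaling these higher and lower unigenes were nearly equal in number, 12721 and 12407. Every member came from the authors' called table, so the closer background is that of the 4337 described called unigenes, of which 33.9% were higher and 60.1% lower. The members stood at 21.0% and 74.2%. The authors' deposited table has 14 members up and 48 down, where 6.09% of all unigenes were up and 8.04% down. The median log2 ratio was -1.39 over the members (-1.45 with the 4 members at 0 in a library set against the floor of 3 fragments), -1.19 over the described called unigenes and -0.11 over all unigenes with at least 20 fragments. As the table was itself selected on the contrast, these counts are descriptions.

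**Figure D1:**
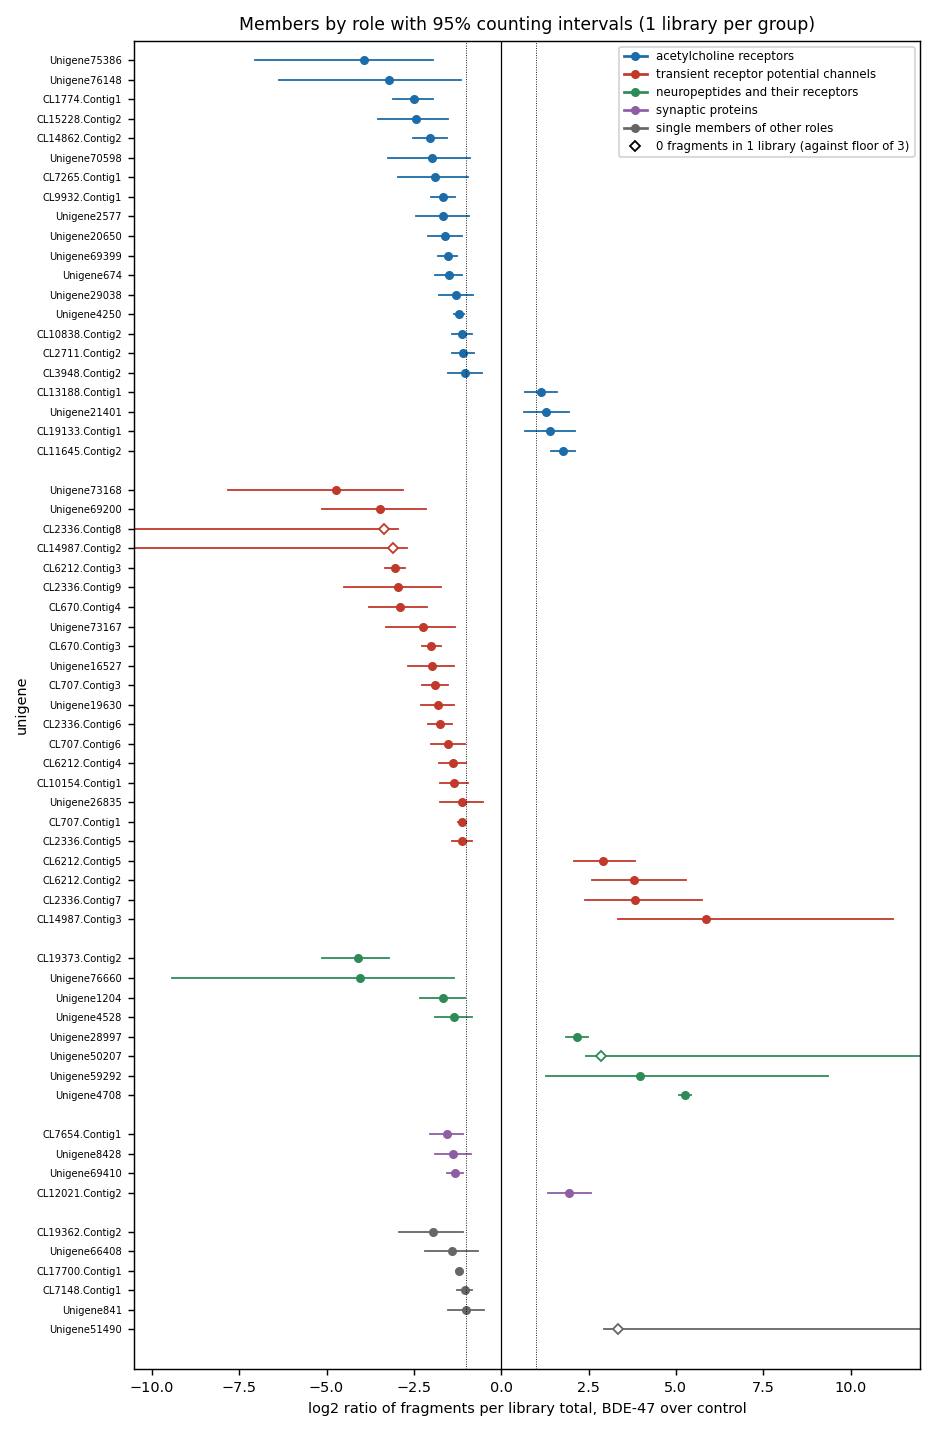
Log2 ratio of fragments per library total (BDE-47 over control, x axis) for each of the 62 members (y axis), coloured by role; lines are 95% counting intervals, dotted lines mark 2-fold, open diamonds are members with 0 fragments in 1 library set against a floor of 3, and their lines run on to the edge. Most points lie left of 0, 17 of 21 acetylcholine receptors and 19 of 23 TRP channels among them, and Unigene4708 lies at 5.26.

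The 62 members held between them 16466 fragments in the control against 18207 in BDE-47, but 1 member decided that sum. Unigene4708, best matched by an FMRFamide receptor in both databases, made up 1.64% of the members' fragments in the control against 57.9% in BDE-47. Without it the members summed to 16196 and 7659 fragments, which is 2.16-fold lower in BDE-47 (2.10 to 2.22). The median FPKM of the members was 5.35 in the control and 2.58 in BDE-47. In the control 13 members were above 10 FPKM, and in BDE-47 7 were.

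**Figure D2:**
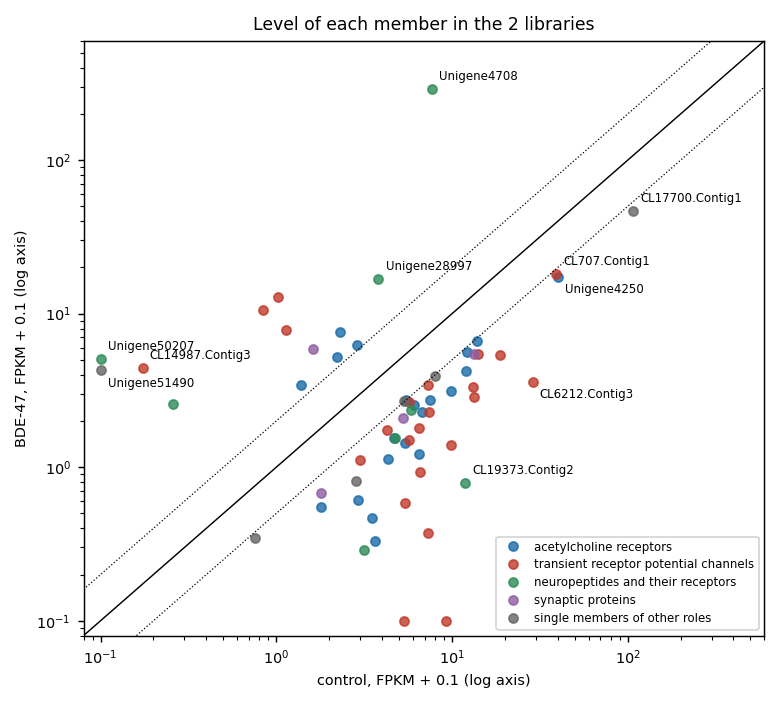
FPKM plus 0.1 of each member in the control (x axis) and in BDE-47 (y axis), both on log axes, with the line of equality and dotted lines at 2-fold. Unigene4708 moves from 7.60 to 291 FPKM, while the members highest in the control, CL17700.Contig1, Unigene4250 and CL707.Contig1, lie just below the lower 2-fold line.

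Acetylcholine receptors were the group with 21 members, 20 nicotinic subunits and 1 receptor with a muscarinic name. By the rule of size 17 nicotinic subunits were lower in BDE-47 and 3 higher. Their fragments came to 3945 in the control against 1983 in BDE-47, a 2.03-fold lower sum (1.92 to 2.15). Of the 17 lower subunits 12 were lower by less than 4-fold and 5 by more. Unigene4250, an alpha-6-like subunit, had the highest level, 40.0 FPKM from 1207 fragments in the control against 17.3 FPKM from 534 fragments in BDE-47, and was 2.31-fold lower (2.08 to 2.56). The next levels in the control were 13.8 FPKM for CL2711.Contig2, 12.02 for CL10838.Contig2 and 11.9 for Unigene69399. All 3 were lower in BDE-47, at 6.53, 5.55 and 4.12 FPKM.

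Among the nicotinic subunits with at least 100 fragments, the lowest ratios belonged to alpha-3-like, alpha-6-like and alpha-7-like contigs. CL1774.Contig1, alpha-3-like, had 172 fragments in the control against 31 in BDE-47 and was 5.67-fold lower (3.85 to 8.60). Its 8 sister contigs in the assembly, which were not called by the authors, did not share the difference. The largest sisters, CL1774.Contig5 and CL1774.Contig3, had 166 and 194 fragments in the control against 235 and 230 in BDE-47, and the cluster of 9 contigs had a log2 ratio of -0.16. CL14862.Contig2, alpha-6-like, had 184 and 46 fragments and was 4.08-fold lower (2.94 to 5.77), while its sister CL14862.Contig3 had 159 and 184 and the cluster a log2 ratio of -0.56. CL9932.Contig1, alpha-7-like, had 297 and 95 fragments and was 3.19-fold lower (2.53 to 4.07). Here the cluster was lower too, with a log2 ratio of -1.22.

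Other nicotinic subunits stood alone in the assembly, so no sister contig could offset them. Unigene69399 had 434 fragments in the control against 153 in BDE-47 and was 2.90-fold lower (2.40 to 3.51). Unigene674, with an alpha-3-like name, had 224 and 81 fragments and was 2.82-fold lower (2.18 to 3.69). Unigene20650, alpha-6-like, had 145 and 49 fragments and was 3.02-fold lower (2.17 to 4.27), and Unigene29038, whose best match is a scallop subunit, had 129 and 54 and was 2.44-fold lower (1.76 to 3.42). The lower subunits with fewest fragments had the widest intervals. Unigene75386 had 30 and 2 fragments, a ratio of 15.3 towards the control with an interval of 3.89 to 132.

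The 3 higher nicotinic subunits had low levels in the control. CL11645.Contig2 had 94 fragments in the control against 324 in BDE-47, or 2.21 and 7.45 FPKM, and was 3.38-fold higher (2.67 to 4.29). Its sister CL11645.Contig1 went the same way, with 21 and 79 fragments. This contig and Unigene69399, which was lower, carry the same pair of names, an oyster entry called sodium/hydrogen exchanger 9 and an alpha-like acetylcholine receptor subunit of the moth Manduca sexta. CL13188.Contig1, alpha-6-like in Nr and muscle alpha-1-like in Swiss-Prot, had 62 and 139 fragments and was 2.20-fold higher (1.62 to 3.01). Unigene21401, alpha-1-like in both databases, had 31 and 77 and was 2.43-fold higher (1.58 to 3.82). The alpha-1 name in Swiss-Prot was not confined to higher members, since Unigene674 also had a mouse alpha-1 subunit as its Swiss-Prot match and was lower. The KEGG entry for alpha-1 was given to 2 members, CL13188.Contig1 and Unigene21401, both higher, and that of Unigene674 is alpha-2.

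G protein-coupled receptors for small transmitters were few. CL19133.Contig1 is named muscarinic acetylcholine receptor M3 in Nr and D(2) dopamine receptor in Swiss-Prot, and had 24 fragments in the control against 64 in BDE-47, a 2.61-fold higher ratio (1.61 to 4.37). Its sister CL19133.Contig2 had 44 and 21 fragments, the opposite direction, and the cluster had a log2 ratio of 0.29. Unigene841, whose Swiss-Prot match is a Drosophila serotonin (5-hydroxytryptamine) receptor and whose Nr name is alpha-2 adrenergic receptor, had 96 and 49 fragments. It was 2.00-fold lower (1.40 to 2.88), was not past the rule of size, and was the member nearest to the limit of the authors' table, with a log2 ratio in the authors' deposited table of -1.0006 against a limit of 1 in size. Unigenes beyond that limit carry no description in the tables used, so no named neighbour outside it can be given.

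The glutamate and GABA words each found 1 member, and the dopamine word found 1 besides CL19133.Contig1, which was placed with the acetylcholine receptors. CL19362.Contig2 resembles the delta-1 subunit of ionotropic glutamate receptors and had 53 fragments in the control against 14 in BDE-47, 3.87-fold lower (2.11 to 7.55). Its longer sister CL19362.Contig1 had 126 and 141 fragments, and the summed cluster had a log2 ratio of -0.24. CL17700.Contig1 resembles the GABA(A) receptor-associated protein GABARAP, which despite its name belongs to the ATG8 family that builds the membranes of autophagy. It was the member with the highest level in the control, 107 FPKM from 4646 fragments, with 46.3 FPKM from 2044 fragments in BDE-47, 2.32-fold lower (2.20 to 2.45). Sister contigs CL17700.Contig4 and CL17700.Contig3 were higher in BDE-47, at 1181 against 713 and 922 against 736 fragments, and the cluster of 4 contigs was 1.498-fold lower (1.44 to 1.56). Unigene51490 was listed at 0 fragments in the control and at 31 in BDE-47, 10.1-fold higher with the control set to 3 fragments. The lower limit of its counting interval was 7.75. Its Nr match is part of a dopamine beta hydroxylase-like protein of a tubeworm, named after the enzyme that turns dopamine into noradrenaline. Its Swiss-Prot match is temptin, part of the pheromone complex of the sea hare Aplysia.

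Of 8 neuropeptide and neuropeptide receptor members 3 were higher, 3 lower and 2 not past the rule because they had fewer than 20 fragments. Unigene4708, FMRFamide receptor-like, had 270 fragments in the control against 10548 in BDE-47, or 7.60 and 291 FPKM, and was 38.3-fold higher (33.9 to 43.3). Ranked by FPKM among all unigenes it stood at place 19307 in the control and at place 227 in BDE-47. It had no sister contig. Its KEGG orthology entry is G protein-coupled receptor 139, so the databases place it among G protein-coupled receptors under different names. Unigene28997, also an oyster FMRFamide receptor by Nr but an angiotensin II receptor by Swiss-Prot, had 112 and 513 fragments, or 3.71 and 16.6 FPKM, and was 4.49-fold higher (3.65 to 5.55).

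Other FMRFamide receptor-like members were lower. Unigene4528 had 113 fragments in the control against 45 in BDE-47 and was 2.56-fold lower (1.80 to 3.71). Unigene1204 had 87 and 28 and was 3.17-fold lower (2.05 to 5.05). Both are matched to the Drosophila FMRFamide receptor in Swiss-Prot, and their KEGG entries are the neuromedin U receptor 2 and the thyrotropin-releasing hormone receptor. In Nr, Unigene4528 matches a hypothetical protein of the annelid Capitella teleta and Unigene1204 an oyster entry called neurogenic locus Notch protein. The FMRFamide name therefore covered 2 higher and 2 lower receptors, the lower ones by Swiss-Prot alone. Receptors of the neuropeptide Y family were seen at very low counts: Unigene59292 had 1 fragment in the control against 16 in BDE-47, and Unigene76660, matched to the neuropeptide F receptor of Drosophila, had 16 and 1. Neither reached 20 fragments, and their intervals spanned 2.43 to 657 and 2.54 to 685 in opposite directions.

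Peptide precursors were represented by 2 members. CL19373.Contig2 resembles the enterin precursor, a source of gut peptides first described in Aplysia, although its Nr match is an ant entry and its Swiss-Prot match an uncharacterized human protein. It had 184 fragments in the control against 11 in BDE-47, or 11.8 and 0.690 FPKM, and was 17.1-fold lower (9.33 to 34.8). Its sister CL19373.Contig1, which the authors also called, had 227 and 49 fragments, and the summed cluster was 6.995-fold lower (5.33 to 9.33). This was the lowest ratio among the 23 clusters of several contigs. Unigene50207 resembles the neuropeptide-like protein NLP-29, which in Caenorhabditis elegans is an antimicrobial peptide of the epidermis. This unigene was listed at 0 fragments in the control and at 22 in BDE-47, 7.18-fold higher with the control set to 3 fragments. The lower limit of its counting interval was 5.36. Its KEGG entry is a basic keratin. Without Unigene4708 the neuropeptide group summed to 513 fragments in the control against 636 in BDE-47.

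Synaptic words found 4 members, none of them a protein confined to synapses. Unigene69410 and Unigene8428 resemble extended synaptotagmin-2, which tethers the endoplasmic reticulum to the plasma membrane and moves lipids between them. Unigene69410 had 554 fragments in the control against 227 in BDE-47 and was 2.49-fold lower (2.13 to 2.92). Unigene8428 had 117 and 46 and was 2.60-fold lower (1.83 to 3.74). CL7654.Contig1 resembles synaptopodin-2, an actin-binding protein of muscle, and had 144 and 50 fragments, 2.94-fold lower (2.12 to 4.14), while its sister CL7654.Contig2 had 112 and 165. CL12021.Contig2 resembles SNAP-47, a membrane fusion protein found in many cell types. It had 29 and 113 fragments and was 3.82-fold higher (2.52 to 5.95), with a cluster that was 2.38-fold higher, although the short sister CL12021.Contig1 had 18 and 1. The 4 members summed to 844 fragments in the control against 436 in BDE-47. With the GABARAP-like and dopamine beta hydroxylase-like unigenes, 6 of the 62 members were set apart by a fixed list of names as outside neurotransmission. The list is a rough one. It includes dopamine beta hydroxylase, although that enzyme acts on a transmitter, and leaves in the TRP channels and the NLP-29-like unigene. Without the 6 set apart, 11 members were higher and 42 lower.

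Voltage-gated and related channels gave 1 potassium and 1 sodium channel. CL7148.Contig1 resembles the T subfamily of potassium channels, which in vertebrates are opened by internal sodium, and had 591 fragments in the control against 292 in BDE-47, 2.07-fold lower (1.79 to 2.39). Its sisters were close to level, with 94 and 96 fragments in CL7148.Contig3 and 103 and 77 in CL7148.Contig4, and the cluster was 1.70-fold lower (1.52 to 1.91). Unigene66408 resembles the pore-forming subunit of voltage-gated sodium channels, which carry the action potential. It was the longest member, 5590 bases, and the only one under 1 FPKM in both libraries, with 57 and 22 fragments, 2.65-fold lower (1.59 to 4.55).

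TRP channels were the largest group, with 23 members in 12 assembly clusters. By the rule of size 19 were lower in BDE-47 and 4 higher, and they summed to 5427 fragments in the control against 2088 in BDE-47, 2.65-fold lower (2.52 to 2.79). Of the 19, 9 were lower by 4-fold or more. Names from 3 subfamilies occurred: 13 members resembled the M subfamily (TRPM, cation channels that include the cold sensor TRPM8 and the oxidant-gated TRPM2 of mammals), 5 the V subfamily (TRPV, with the heat sensors and the epithelial calcium channel TRPV6 of mammals) and 5 an oyster entry called short TRP channel 2-like. The summed fragments were 2.89-fold lower for TRPM-like (2.63 to 3.19), 2.39-fold lower for TRPV-like (2.22 to 2.57) and 3.01-fold lower for the TRPC2-like members (2.69 to 3.36).

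**Figure D3:**
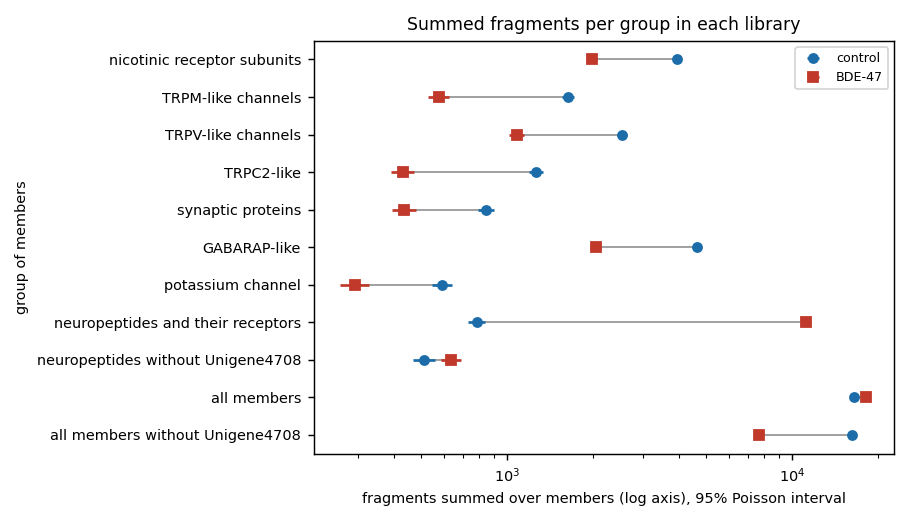
Fragments summed over the members of each group (x axis, log scale) in the control (circles) and BDE-47 (squares) libraries, with 95% Poisson intervals that cover counting error only. The nicotinic and TRP groups lie lower in BDE-47, and the neuropeptide group moves from 783 to 11184 fragments with Unigene4708 and from 513 to 636 without it.

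All 5 TRPV-like members were lower, and those of 1 cluster made up most of their fragments. CL707.Contig1, named TRPV6 in Nr and TRPV3 in Swiss-Prot, was among the highest members, with 39.2 FPKM from 1822 fragments in the control and 18.1 FPKM from 856 in BDE-47, 2.17-fold lower (2.00 to 2.36). CL707.Contig3 had 295 and 81 fragments and was 3.72-fold lower (2.90 to 4.82), and CL707.Contig6 had 134 and 48 and was 2.85-fold lower (2.04 to 4.05). Each of the 10 contigs of this cluster had fewer fragments per total in BDE-47, from 1.33-fold lower in CL707.Contig8 (342 and 262 fragments) to 3.72-fold in CL707.Contig3, and the summed cluster was 2.12-fold lower (1.99 to 2.27). Unigene16527, TRPV6-like and alone in the assembly, had 101 and 26 fragments and was 3.97-fold lower (2.56 to 6.36). CL10154.Contig1 had 177 and 71 fragments and was 2.55-fold lower (1.92 to 3.40), but its sister CL10154.Contig2 had 27 and 47.

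TRPM-like members were 11 lower and 2 higher. CL670.Contig3, TRPM2-like, had 553 fragments in the control against 141 in BDE-47, or 13.0 and 3.25 FPKM, and was 4.01-fold lower (3.32 to 4.85). CL670.Contig4 had 110 and 15 and was 7.49-fold lower (4.35 to 13.8), and the cluster was 3.77-fold lower (3.21 to 4.45). The TRPM3-like cluster CL2336 held 13 contigs, 5 of them members, that went both ways. Its long contigs CL2336.Contig6 and CL2336.Contig5 had 321 and 307 fragments in the control against 98 and 145 in BDE-47. The short CL2336.Contig7, of 346 bases, had 4 and 58, and CL2336.Contig8, of 210 bases, had 30 and 0. Summed, the cluster was 2.09-fold lower (1.85 to 2.36). Single unigenes with TRPM2-like or TRPM7-like names were lower in BDE-47, with 52 and 2 fragments in Unigene73168, 54 and 5 in Unigene69200 and 56 and 12 in Unigene73167.

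The other higher TRPM-like contig, CL14987.Contig3, had 1 fragment in the control against 60 in BDE-47, 58.8-fold higher with an interval of 10.1 to 2359. This was the highest fragment ratio among the members with fragments in both libraries, and it rests on 1 control fragment. On FPKM plus 0.1 its log2 ratio was 4.67, below 5.67 for Unigene50207, 5.42 for Unigene51490 and 5.24 for Unigene4708. CL14987.Contig2, the sister of CL14987.Contig3, had 25 and 0 fragments. It was 8.51-fold lower with BDE-47 set to 3 fragments, with a lower limit of its counting interval of 6.42. The cluster of 3 contigs summed to 46 and 73 fragments and was not past the rule of size.

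TRPC2-like contigs went both ways within 1 cluster. CL6212.Contig3 had 874 fragments in the control against 109 in BDE-47, or 28.7 and 3.50 FPKM, and was 8.19-fold lower (6.70 to 10.1). CL6212.Contig4 had 204 and 80 fragments and was 2.60-fold lower (2.00 to 3.42). In the same cluster CL6212.Contig5 had 14 and 107 fragments, 7.48-fold higher (4.27 to 14.2), and CL6212.Contig2 had 6 and 85, 13.9-fold higher (6.12 to 38.9). The summed cluster of 5 contigs was 2.82-fold lower (2.51 to 3.17), so the direction of the higher contigs turned with summing. The Swiss-Prot match of CL6212.Contig3 is a doublecortin-like protein kinase and the KEGG entry of CL6212.Contig5 is myosin light chain kinase. The name of this cluster as a channel therefore rests on a partial oyster entry alone. Unigene19630, with the same Nr name and a KEGG entry of a MAP kinase kinase kinase, had 168 and 49 fragments and was 3.50-fold lower (2.53 to 4.92).

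Members share assembly clusters with contigs that are not members. Of the 62 members 34 lie in 23 clusters of several contigs, which hold 51 further contigs, 7 of them called by the authors, and 28 members have no sister. Of the 41 further contigs with at least 20 fragments, 6 were lower, 2 higher and 33 not past the rule of size. Members had to be called by the authors and sisters did not, so sisters nearer to 0 follow from that choice. With contigs summed, 28 of 51 clusters were lower, 8 higher and 15 not past the rule. Among the 3879 clusters that hold any described called unigene 40% were lower, 24.1% higher and 35.8% not past it. By role, 10 of 12 TRP clusters and 12 of 21 acetylcholine receptor clusters were lower. Only TRP-like clusters held more than 1 member, so only there could members of a cluster differ in direction, and in 3 clusters they did. Whether the contigs of a cluster are alleles, splice forms or paralogs was not tested, and reads shared between them may have been split by the counting.

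**Figure D4:**
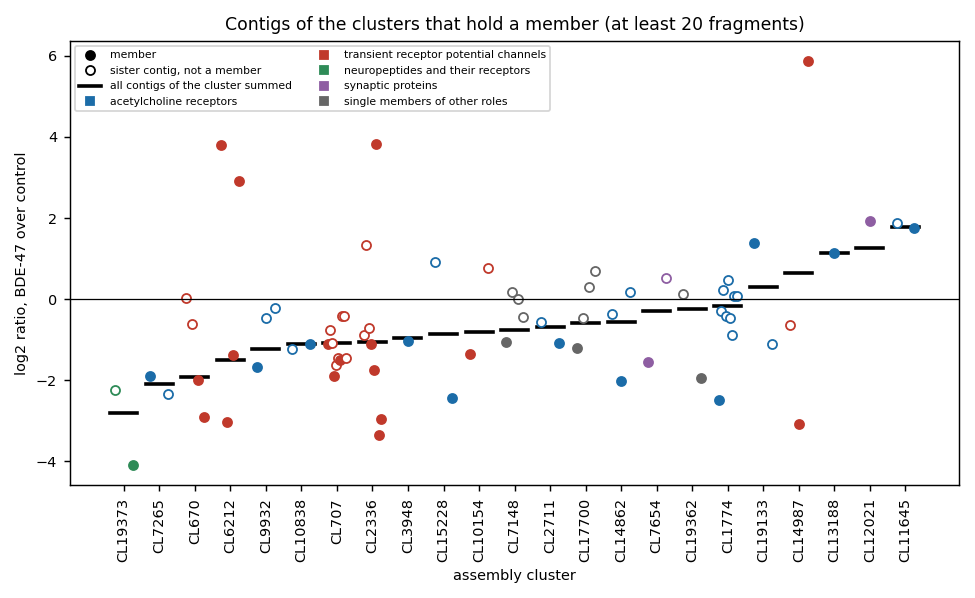
Log2 ratio (BDE-47 over control, y axis) of each contig with at least 20 fragments in the 23 assembly clusters of several contigs that hold a member (x axis, ordered by the cluster's sum); filled circles are members, open circles sister contigs, black bars the summed cluster. Members had to pass the authors' limit and sisters did not; the sum of CL1774 is -0.16, while those of CL19373, CL670 and CL707 stay below -1.

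KEGG and Gene Ontology (GO) annotation, which did not choose the members, fitted the label in part. A KEGG orthology entry was given for 54 members. For 46 it named a receptor or a channel, GABARAP not counted, against 218 of the 4337 described called unigenes, members included. The most frequent KEGG entries were TRPM2 with 9 members and the invertebrate nicotinic receptor with 5. A GO term was given for only 26 of the 62 members, against 1312 of the 4337. GO terms gave channel activity for 7 members, receptor activity for 3, ion transport for 9, membrane for 12 and synapse for 3. Among the 4337 these numbered 19, 24, 41, 308 and 31. Whether KEGG entries are independent of the Nr and Swiss-Prot names was not tested. The members matched a word in both databases in 35 cases, in Nr alone in 11 and in Swiss-Prot alone in 16. The best Nr match was an oyster (Crassostrea gigas) entry for 45 members and an entry of the annelid Capitella teleta for 10, and none was from an alga, a ciliate or a copepod. Members carried 34 Nr descriptions, of which 9 were shared by several members and 5 of those by members that differed in direction. Among members with under 100 fragments 15 of 22 had a ratio below 0, and among those with 100 to 1000 fragments 30 of 36 did, with median sizes of 3.27 and 1.49 in log2. In the described called unigenes 61.5% and 66.6% of these classes lay below 0.

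A separate list of words chosen for neurotransmission found 71 other unigenes among the described called unigenes. Of these 27 were higher, 40 lower and 4 not past the rule of size. Not all of them are genes of neurotransmission. The word opioid found 6, most of them opioid growth factor receptor-like, and amiloride-sensitive found 3 amine oxidases. The words chloride channel found CL7993.Contig2, best matched in Nr to an entry of the parasite Toxoplasma gondii. Unigene21142, whose Swiss-Prot match is glutamate decarboxylase, the enzyme that makes GABA, had 2008 fragments in the control against 418 in BDE-47. Unigene12428, like tyramine beta-hydroxylase, the last enzyme of octopamine synthesis in invertebrates, had 257 and 91. The 3 neurexin-like unigenes, adhesion proteins of the presynaptic side, summed to 1765 and 831 fragments. Of these CL1233.Contig2 held 1227 and 561, and its whole cluster had 2170 and 1744. Another of the neurexin-like unigenes, Unigene8337, has a mannose receptor as its KEGG entry. The 2 neuroligin-like unigenes, named after proteins of the postsynaptic side, summed to 60 and 140. Their other names differ: Unigene54242 is a carboxylesterase in Nr and KEGG, and Unigene9043 has bile salt-stimulated lipase as its KEGG entry. Unigene9043 was not past the rule of size. The vesicular glutamate transporter-like CL12934.Contig2 had 166 and 359. Receptors named after cholecystokinin were mostly higher, 5 of 6 higher and 1 lower, with 870 and 3649 fragments in all. Of these fragments CL7594.Contig1 held 704 and 3401. The higher ones include CL6470.Contig1 and CL6470.Contig2, which share a cluster. Receptors named after orexin, in part the same unigenes, were 2 higher and 3 lower, with 581 and 244 fragments. Both names together covered 8 unigenes, 5 higher and 3 lower. Excitatory amino acid transporters, which clear glutamate, were 7 higher and 5 lower. Among the higher ones CL874.Contig1, CL874.Contig2 and CL874.Contig3 share a cluster, as do CL19104.Contig1 and CL19104.Contig4. Cluster CL19104 also holds the lower CL19104.Contig2, with 393 and 173 fragments, and its summed log2 ratio was 0.31. Calmodulin words, which also match proteins of other organisms, gave 7 higher and 13 lower.

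Markers of the cells that the gland may hold were looked up among the described called unigenes, all of them selected on the contrast and 60.1% of them lower. The neuron list held 24 described called unigenes, with 22 lower and 1 higher. Of these 19 were members, most through the word neuronal in a receptor's name. The other 5, which are neurofilament-like and neurexin-like, summed to 10302 fragments in the control against 4015 in BDE-47, with 4 lower and 0 higher. The 3 neurexin-like unigenes held only 1765 and 831 of these fragments, so the neurofilament-like ones decided the sum. No unigene in the called table was named ELAV, synapsin, tyrosine hydroxylase or choline O-acetyltransferase. The muscle list had 12 lower and 5 higher of 18 (4537 and 2325 fragments), the ciliated cell list 19 and 3 of 23 (4934 and 2864), the blood cell list 34 and 31 of 71 (15737 and 18700) and the gonad list 11 and 10 of 24 (6461 and 13292). The digestive gland list had 10 lower and 23 higher of 38 (21066 and 16366 fragments), and unigenes best matched to an alga, plant, ciliate or copepod had 51 lower and 17 higher of 78 (5971 and 4525). The part of these lists in the members' values was not tested.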

How the data were processed

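Poly(A) RNA was sequenced on an Illumina HiSeq, per the labels' protocols. The submitters' processing notes name CASAVA 1.5 and no assembler, aligner or counter. Raw fragment counts per unigene were used as the authors deposited them. The FPKM values deposited by the authors were recomputed from counts and lengths to within 5e-05. The log2 ratios, p-values and FDR deposited by the authors define their called table (FDR at most 0.001, log2 ratio at least 1 in size). Alignment scores in the deposited table rank the names and were not used further.

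With 1 library per group no test was made. Ratios have exact conditional binomial (Clopper-Pearson) intervals and sums exact Poisson intervals, from SciPy 1.17.1 under Python 3.11.15. The intervals cover counting error only, since each group has 1 library. PCR copies carry no molecular identifiers, so the intervals may be too narrow even for counting error. A library at 0 was set to 3 fragments for a fold. TMM factors (edgeR 4.0.16) and DESeq2 1.42.0 size factors served as alternatives. The rule of size was checked on simulated counts, where lowered unigenes were called less often than raised ones, since some fell under the fragment minimum. In role groups of up to 6 members all are named, and in larger ones the 3 highest and 3 lowest ratios with at least 100 fragments and the 2 members with most fragments. Further members are named after inspection of their values, as are the counts by cluster, by fragment class and by pathway word. The members and lists were chosen with earlier results of these data known. No unigene sequence is in the tables used.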

Additional observations from a re-analysis of the deposited data

How the results depend on the processing

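TMM factors and DESeq2 size factors, from unigenes with at least 20 fragments, each moved every ratio up by 0.12 in log2, and 13 members were then higher and 39 lower. Factors from all unigenes moved the ratios by 0.06 (TMM) and 0.03 (DESeq2) and left 13 higher and 44 lower with either. The filtered factors were taken after both had been computed. With them the summed log2 ratios were -0.86 and -0.87 for acetylcholine receptors, -1.29 and -1.29 for TRP channels and 3.93 and 3.92 for neuropeptides, against -0.99, -1.41 and 3.81 with library totals. With contigs of a cluster summed, 8 of 51 clusters were higher and 28 lower, the median log2 ratio was -1.10 rather than -1.39, and the group sums were -0.69 for acetylcholine receptors, -1.25 for TRP channels, 3.45 for neuropeptides and -0.72 for synaptic proteins (-0.98 before). CL6212.Contig5 reversed to -1.49 when summed, since its cluster holds larger lower contigs. With 1 unigene per description 6 were higher and 25 lower, with sums of -1.15, -1.55 and 3.96 for acetylcholine receptors, TRP channels and neuropeptides, and with a match in both databases 6 were higher and 29 lower. A floor of 100 fragments left 7 higher members, and a 4-fold limit left 8 higher and 13 lower, as fewer can pass. Over all unigenes 11092 were higher and 14421 lower with library totals, but TMM gave 12721 higher and 12407 lower and DESeq2 12670 and 12442, so lower calls no longer outnumbered higher ones. There the floor of 100 left 2789 higher and 3988 lower, the 4-fold limit 4381 and 5164, and no floor gave 17626 higher. The neuropeptide sum was 0.28 without Unigene4708, an alternative chosen after seeing the data. A pseudocount of 1 left 10 members higher and 35 lower. The calls it ended include those of Unigene66408 (-0.41), CL7654.Contig1 (-0.77), CL7148.Contig1 (-0.88), CL13188.Contig1 (0.91) and Unigene21401 (0.98). With TMM the members short of the limit include CL707.Contig1 at -0.998 and CL7148.Contig1 at -0.93. The nicotinic CL3948.Contig2, at -1.003 with library totals, also lay within that shift of the limit. The counts of 17 lower nicotinic subunits and 19 lower TRP channels therefore hold for library totals and not for TMM. The other alternatives moved no count of members by more than 1.5 times. No paired analysis was possible because each group has 1 library. Leaving out a replicate was not possible for the same reason.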
